A study of Sus scrofa with 12 samples.

Results

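Endothelin genes and nitric oxide synthase genes were followed in RNA sequencing of striatum from newborn piglets, after deep hypothermic circulatory arrest (DHCA) or under anaesthesia alone (sham). The genes were taken by name from the authors' deposited table out of a list of 8, namely EDN1, EDN3, EDNRA, EDNRB, ECE1, NOS1, NOS2 and NOS3. EDN3 had no row under that name and is not analysed here, which left 7 of the 25880 genes in the count table. In the DHCA group (n = 6), anaesthesia with 4% isoflurane was followed by sternotomy and cardiopulmonary bypass, and the animals were cooled to 18 °C. Circulation was stopped for 30 min, bypass was restarted for rewarming to 37 °C, and recovery lasted 6 h. The sham group (n = 6) had the same 4% isoflurane, and the labels name neither surgery nor a recovery time for it. The comparison therefore sets the whole procedure, with anaesthesia shared by both groups, against anaesthesia alone.

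Endothelin 1 is a vasoconstrictor peptide made mainly by endothelial cells and, in injured brain, also by astrocytes. It is released from an inactive precursor by endothelin converting enzyme and acts on the ETA receptor (EDNRA), which contracts vascular smooth muscle, and on the ETB receptor (EDNRB), which in brain is found on endothelium and astrocytes. Nitric oxide synthases turn arginine into the vasodilator nitric oxide with the help of the cofactor tetrahydrobiopterin. NOS3 is the endothelial form, NOS1 the neuronal form, made in striatum by a sparse class of interneurons, and NOS2 a form induced by inflammatory signals.

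Library totals ran from 5434652 to 9997400 counts in DHCA and from 1377809 to 12933536 in sham. Sham 5 and Sham 1 were the shallowest, with 1377809 and 2515816 counts, and had the smallest mitochondrial shares, 7.30% and 4.01% against 10.6% to 26.3% in the other 10 libraries. The library labelled Sham 4 went against its tissue label. Its markers of spiny projection neurons, the main cell of the striatum, summed to 79.7 CPM (counts scaled to a common library size) against 1968 to 5535 CPM in the other 11 libraries. Its cortical markers summed to 1015 CPM, against 5.22 to 19.3 CPM elsewhere. The results were therefore also computed without Sham 1 and Sham 5, and without Sham 1, Sham 4 and Sham 5, choices made after these values were known.

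Per kilobase of exon, ECE1 was the most abundant of the 7 genes and NOS2 and EDNRA the least. ECE1 stood at 39.5 ± 5.62 RPKM (CPM per kilobase of exon) in DHCA and 34.5 ± 8.02 RPKM in sham (SD, n = 6 each). NOS1 followed with 9.34 ± 1.98 RPKM in DHCA and 10.6 ± 2.49 RPKM in sham, and EDNRB with 6.81 ± 1.05 RPKM in DHCA and 4.78 ± 1.15 RPKM in sham. In sham the next was NOS3 at 4.01 ± 1.39 RPKM, then EDN1 at 1.79 ± 1.36, EDNRA at 1.43 ± 0.58 and NOS2 at 1.36 ± 0.56 RPKM. In DHCA, EDN1 came after EDNRB with 4.59 ± 1.28 RPKM, ahead of NOS3 (2.91 ± 0.56), NOS2 (2.14 ± 0.73) and EDNRA (1.17 ± 0.55 RPKM). ECE1 lay above every other gene in both groups, while below it each gene's range overlapped that of its neighbour in the order, in DHCA and in sham. The levels depend on the exon models counted. Of the exon bases, 51.3% for EDN1, 46.8% for NOS3 and 26.2% for NOS2 lie outside the RefSeq spans, so the order may change with the model.

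**Figure D1:**
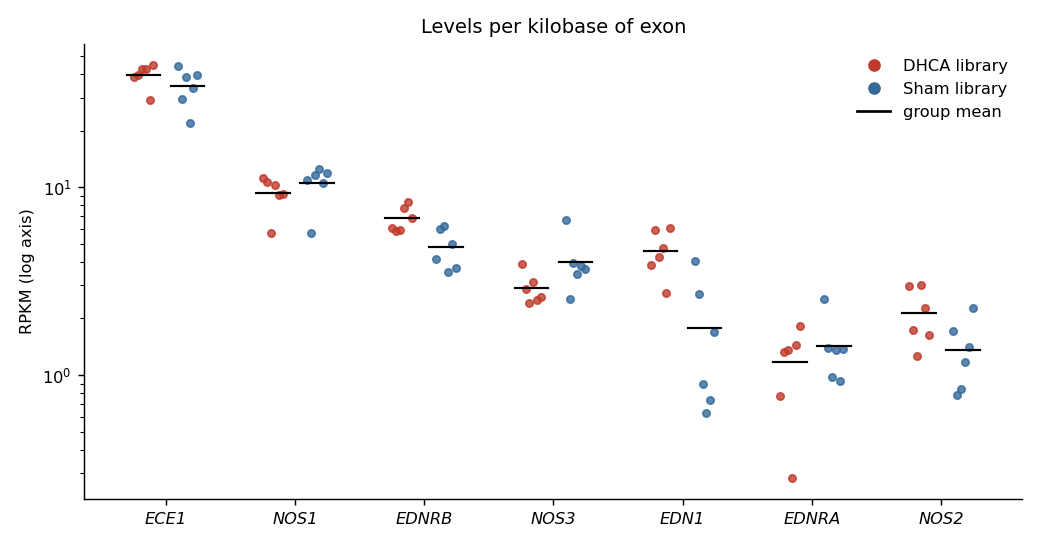
Level of each gene per kilobase of exon (RPKM, log axis) in the 6 DHCA libraries (red, left of each pair) and the 6 sham libraries (blue), with the group mean as a bar. ECE1 lies above all other genes, and EDN1 spans 2.72 to 6.09 RPKM in DHCA against 0.63 to 4.07 RPKM in sham.

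Of the 7 genes, 4 had a positive and 3 a negative log2 fold change (DHCA minus sham), with a median of 0.20 against -0.003 for all 14004 genes tested, of which 49.5% were positive. A single gene, EDN1, had an absolute log2 fold change of at least 1, which 2.58% of all genes had. With edgeR's quasi-likelihood test, 0 of the 7 had an adjusted p under 0.05, the threshold for a call, where 0.186% of all genes tested were called. At an unadjusted p under 0.05 there were 3, EDN1, EDNRB and NOS2, all higher in DHCA. That level was reached by 3.43% of all genes in the higher direction, by 4.47% in the lower and by 7.9% in either. The DESeq2 Wald test called 0 of the 7, against 1.1% of all genes. With limma-voom and quality weights per sample, 1 of the 7, EDN1, was called, against 1.48% of all genes. The groups did not overlap in 0 of the 7, and in 0.993% of all genes tested. With Sham 1 and Sham 5, or Sham 1, Sham 4 and Sham 5, left out, edgeR also called 0 of the 7. The labels do not say whether each sample is a separate piglet, so p-values measure the spread between samples. In whole tissue, fewer cells of a type and less RNA per cell cannot be told apart.

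**Figure D2:**
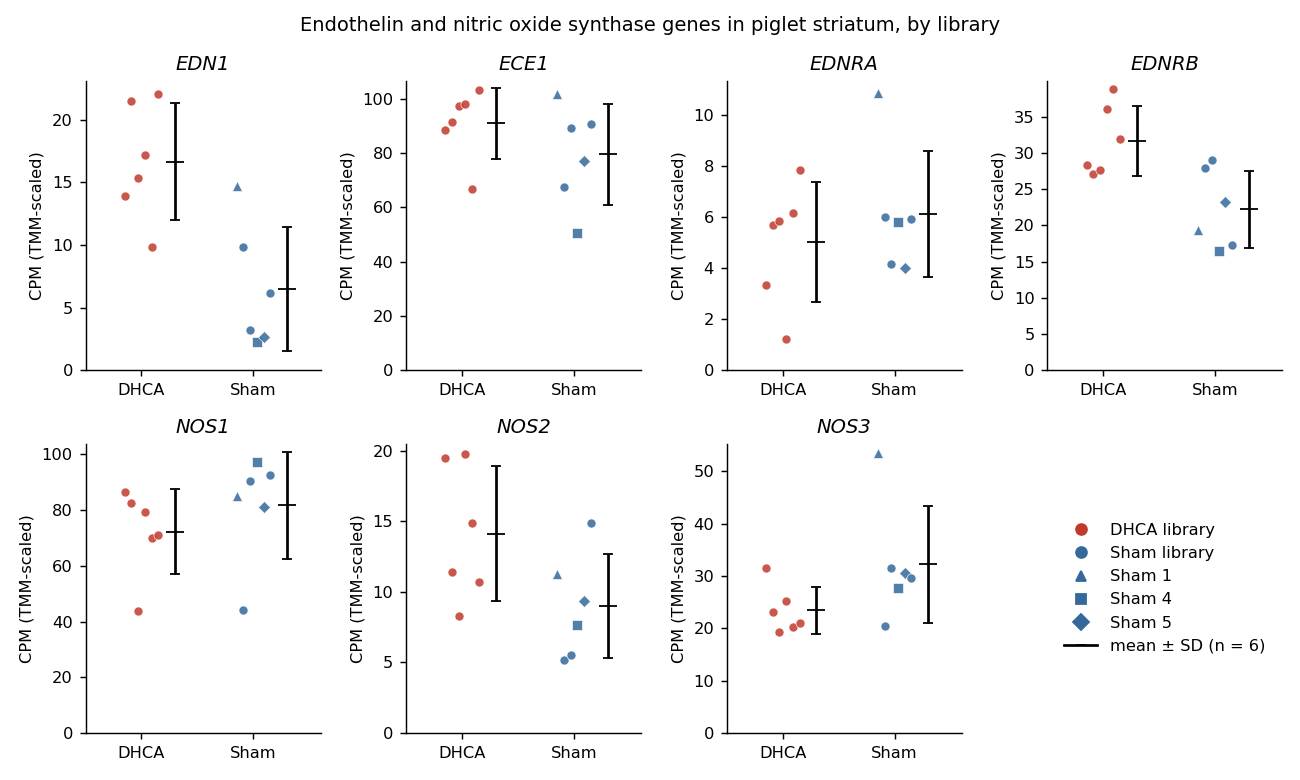
CPM of each gene in every library, with DHCA in red on the left of each panel and sham in blue on the right, and the mean and SD of each group (n = 6) in black. Sham 1, Sham 4 and Sham 5 have their own symbols. EDN1 lies between 9.85 and 22.1 CPM in DHCA, and Sham 1 (14.7 CPM) is the sham library that reaches furthest into that range.

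EDN1, the gene of endothelin 1 (ENSSSCG00000035598, Sscrofa11.1, chromosome 7, 8752093 to 8760212, plus strand), had the largest fold change of the 7. It ranged from 9.85 to 22.1 CPM in DHCA with a median of 16.3, against 2.27 to 14.7 CPM in sham with a median of 4.69. All 6 DHCA libraries lay above the sham median and 4 lay above every sham library, while 5 of the 6 sham libraries lay below every DHCA library. The exception was Sham 1, at 14.7 CPM. The means were 16.6 ± 4.65 CPM in DHCA and 6.48 ± 4.94 CPM in sham (SD, n = 6 each), a 2.57-fold difference (log2 fold change 1.36, SE 0.40, edgeR adjusted p = 0.296). By its edgeR p, EDN1 ranked 209 among the 14004 genes.

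The call on EDN1 differed between tests of the same 12 libraries. With limma-voom its log2 fold change was 1.65 (SE 0.27, adjusted p = 0.0094). With the DESeq2 Wald test on the 12 libraries it was 1.36 (SE 0.42, adjusted p = 0.0822). The authors' deposited table, in which 1.29% of genes with an adjusted p were under 0.05, gave EDN1 a log2 fold change of 1.55 (standard error 0.35, adjusted p = 0.00211). Which libraries entered the authors' fit is not given in the labels or headers, and 18 library columns stand in the count table, so this value may rest on other libraries than the 12 used here. In that deposited table the other 6 genes had adjusted p between 0.31 for EDNRB and 0.811 for NOS1. Over the edgeR fits that left out 1 library, the log2 fold change of EDN1 was lowest without Sham 4, at 1.16 (adjusted p = 0.458), and highest without Sham 1, at 1.67 (adjusted p = 0.0923). Sham 4, the library that went against its tissue label, held the lowest EDN1 value, 2.27 CPM. Sham 5, at 2.66 CPM, rests on 4 counts. Of the 3622 exon bases counted for EDN1, 51.3% lie beyond the span of the RefSeq EDN1 gene of the same build, in a longer 3′ end, and reads from the different parts are counted together.

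ECE1, the endothelin converting enzyme gene (ENSSSCG00000003513, chromosome 6, 79410669 to 79466047, minus strand), ranged from 66.7 to 103 CPM in DHCA with a median of 94.4, against 50.5 to 102 CPM in sham with a median of 83.2. The groups overlapped almost wholly. Its log2 fold change was 0.20 (SE 0.18, edgeR adjusted p = 0.822), and 0.085 without Sham 4.

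The ETB receptor gene EDNRB (ENSSSCG00000009477, chromosome 11, 50073161 to 50102814, minus strand) ranged from 27.2 to 38.8 CPM in DHCA with a median of 30.1, against 16.5 to 29.0 CPM in sham with a median of 21.3. All 6 DHCA libraries lay above the sham median, 3 lay above every sham library, and 4 sham libraries lay below every DHCA library. The means were 31.7 ± 4.88 CPM in DHCA and 22.2 ± 5.36 CPM in sham (SD, n = 6 each), with a log2 fold change of 0.51 (SE 0.18, edgeR adjusted p = 0.445). With 1 library left out the log2 fold change ran from 0.42 to 0.61, with edgeR adjusted p from 0.24 to 0.74. Its lowest value over all alternatives was 0.36. Sham 4 held the lowest EDNRB level, 16.5 CPM.

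The ETA receptor gene EDNRA (ENSSSCG00000009031, chromosome 8, 81210225 to 81277066, minus strand) was among the least abundant, with 6 to 81 counts per library. It ranged from 1.21 to 7.83 CPM in DHCA with a median of 5.77, against 3.99 to 10.9 CPM in sham with a median of 5.88. DHCA 4 held the lowest value, from 9 counts, and Sham 1 the highest. The log2 fold change was -0.29 (SE 0.37, edgeR adjusted p = 0.847), against -0.089 without DHCA 4 and -0.10 without Sham 1. Per exon length, EDNRB made up 85.4% ± 6.43 of the RNA of both receptors in DHCA and 76.5% ± 9.13 in sham (SD, n = 6 each).

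NOS3, the endothelial synthase gene (ENSSSCG00000016450, chromosome 18, 6205512 to 6228967, minus strand), ranged from 19.4 to 31.5 CPM in DHCA with a median of 22.1, against 20.4 to 53.5 CPM in sham with a median of 30.1. A single DHCA library lay above the sham median, and 2 sham libraries lay above every DHCA library. The log2 fold change was -0.45 (SE 0.22, edgeR adjusted p = 0.663). Without Sham 1, which held 53.5 CPM and also the highest summed endothelial markers, it was -0.25 (adjusted p = 0.835). The counted NOS3 model shares 15.7% of its exon bases with ATG9B on the opposite strand, where reads cannot be assigned by strand, and 46.8% of its exon bases lie outside the RefSeq NOS3 span.

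NOS1, the neuronal synthase gene (ENSSSCG00000009856, chromosome 14, 35112898 to 35295758, plus strand), ranged from 43.9 to 86.7 CPM in DHCA with a median of 75.3, against 44.0 to 97.2 CPM in sham with a median of 87.6. Every DHCA library lay below the sham median, yet both groups had a library near 44 CPM, DHCA 3 and Sham 2. The log2 fold change was -0.18 (SE 0.21, edgeR adjusted p = 0.842), against -0.077 without DHCA 3 and -0.31 without Sham 2. Of the 7 markers listed for the interneurons that make NOS1, among them the peptide genes SST and NPY, 0 were called, against 0.186% of all genes. At an unadjusted p under 0.05 there were 0, against 7.9% of all genes, and the median log2 fold change was 0.13.

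NOS2, the inducible synthase gene (ENSSSCG00000017755, chromosome 12, 44173377 to 44327111, minus strand), ranged from 8.30 to 19.8 CPM in DHCA with a median of 13.2, against 5.16 to 14.9 CPM in sham with a median of 8.50. DHCA libraries lay above every sham library in 3 cases, and 3 sham libraries lay below every DHCA library. The log2 fold change was 0.67 (SE 0.30, edgeR adjusted p = 0.61). The counted NOS2 model is longer than the RefSeq gene, with 26.2% of its exon bases outside the RefSeq span, and it runs across the gene LYRM9 on the same strand without sharing exon bases with it. It shares 257 exon bases, 3.91%, with ENSSSCG00000017754 on the opposite strand. Exon counts are not used here, so the part of these bases in the NOS2 values was not tested. Markers of blood neutrophils and monocytes, cells that can make NOS2, summed to 250.1 to 522 CPM in DHCA and 127 to 491 CPM in sham, and their part in NOS2 was not tested. Per exon length, NOS2 made up 14.7% ± 2.76 of the RNA of the 3 synthases in DHCA and 8.52% ± 2.53 in sham. NOS3 made up 20.5% ± 2.84 in DHCA and 25.2% ± 5.38 in sham, and NOS1 64.8% ± 3.71 in DHCA and 66.3% ± 5.84 in sham (SD, n = 6 each). These shares depend on the exon models counted for NOS2 and NOS3.

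**Figure D3:**
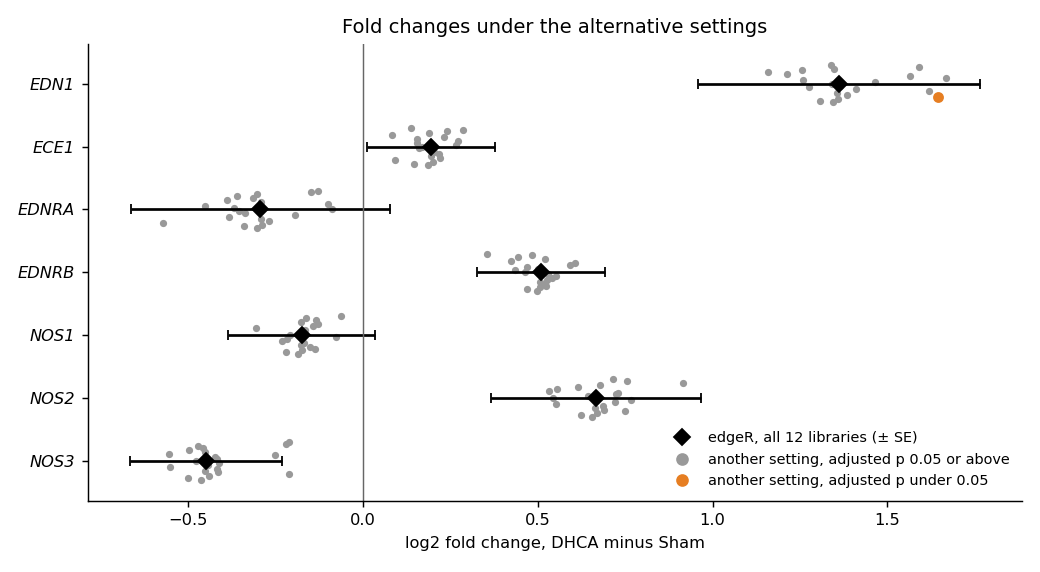
Log2 fold change (DHCA minus sham) of each gene in the edgeR fit of all 12 libraries (black diamond, with its SE) and under each alternative setting (dots). Every dot lies on the same side of 0 as its diamond, and 1 setting, limma-voom for EDN1, has an adjusted p under 0.05 (orange).

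To set each gene against the cells that are its main known source, its log2 CPM was compared with the mean log2 CPM of markers of that cell type in the same library. Of the 5 ratios tested, EDN1 against endothelial markers differed between the groups. It ran from -0.91 to 0.20 on the log2 scale in DHCA and from -3.19 to -0.94 in sham, so every DHCA library lay above every sham library, although DHCA 5 and Sham 1 nearly touched. The means were -0.26 ± 0.41 in DHCA and -2.09 ± 0.98 in sham (SD, n = 6 each), a difference of 1.83. The exact 2-sided permutation test over 924 assignments gave p = 0.00216, the smallest they can give, and an adjusted p = 0.0108 over the 5 ratios. When Sham 1, Sham 4 and Sham 5 were dropped, the difference was 1.57 and the groups still did not overlap. The exact p was then 0.0119, the smallest that 6 against 3 libraries can give, and the adjusted p = 0.0595.

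The endothelial markers themselves had a mean log2 CPM of 4.29 ± 0.083 in DHCA and 4.53 ± 0.17 in sham (SD, n = 6 each). Among the 13 tested, edgeR called 0 (0.186% of all genes). At an unadjusted p under 0.05, 1 was higher and 4 were lower, where 3.43% and 4.47% of all genes were. The median log2 fold change was -0.52. CDH5, an endothelial cadherin, had a log2 fold change of 0.67 (SE 0.21, edgeR adjusted p = 0.354) and TEK, the angiopoietin receptor, -0.95 (SE 0.29, edgeR adjusted p = 0.33). The summed markers ran from 367 to 423 CPM in DHCA and from 345 to 633 CPM in sham, with Sham 1 the highest. EGFL7, another listed marker, was at 0 counts in all libraries, and the cause was not tested. Astrocyte markers summed to 6638 to 8377 CPM in DHCA and 6627 to 7284 CPM in sham, and microglial markers to 192 to 327 CPM in DHCA and 205 to 391 CPM in sham. The endothelial mean is subtracted in the EDN1 ratio, so its lower value in DHCA is by construction part of that difference of 1.83. Sham 1 had the highest endothelial mean, 4.84. Its EDN1 level alone, 14.7 CPM, lay within the DHCA range of 9.85 to 22.1 CPM. Whether the astrocyte and microglial levels play a part in the EDN1 difference was not tested.

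The NOS3 ratio to endothelial markers overlapped between the groups. It averaged 0.26 ± 0.29 in DHCA and 0.43 ± 0.29 in sham, a difference of -0.17 on the log2 scale (exact permutation p = 0.318, adjusted p = 0.344), and -0.079 without Sham 1. EDNRB against astrocyte markers averaged -3.69 ± 0.15 in DHCA and -4.08 ± 0.32 in sham, a difference of 0.40 (exact permutation p = 0.0346, adjusted p = 0.0866). Without Sham 2 that difference was 0.49, with an adjusted p = 0.0162 by the exact permutation test, the only alternative that called it. With 1 library left out the adjusted p of the same test reached 0.157. Over all alternatives the difference for EDNRB was as low as 0.26, and its adjusted exact p as high as 0.565. EDNRA against mural cell markers, those of smooth muscle and pericytes, averaged -1.86 ± 0.90 in DHCA and -1.42 ± 0.48 in sham (difference -0.44, exact permutation p = 0.344, adjusted p = 0.344). Without DHCA 4 that difference was -0.11. EDNRA against EDNRB averaged -2.77 ± 0.98 in DHCA and -1.86 ± 0.72 in sham (difference -0.91, exact permutation p = 0.0823, adjusted p = 0.137), and the difference was -0.54 without DHCA 4, whose EDNRA value rests on 9 counts. All SDs are over 6 libraries per group.

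**Figure D4:**
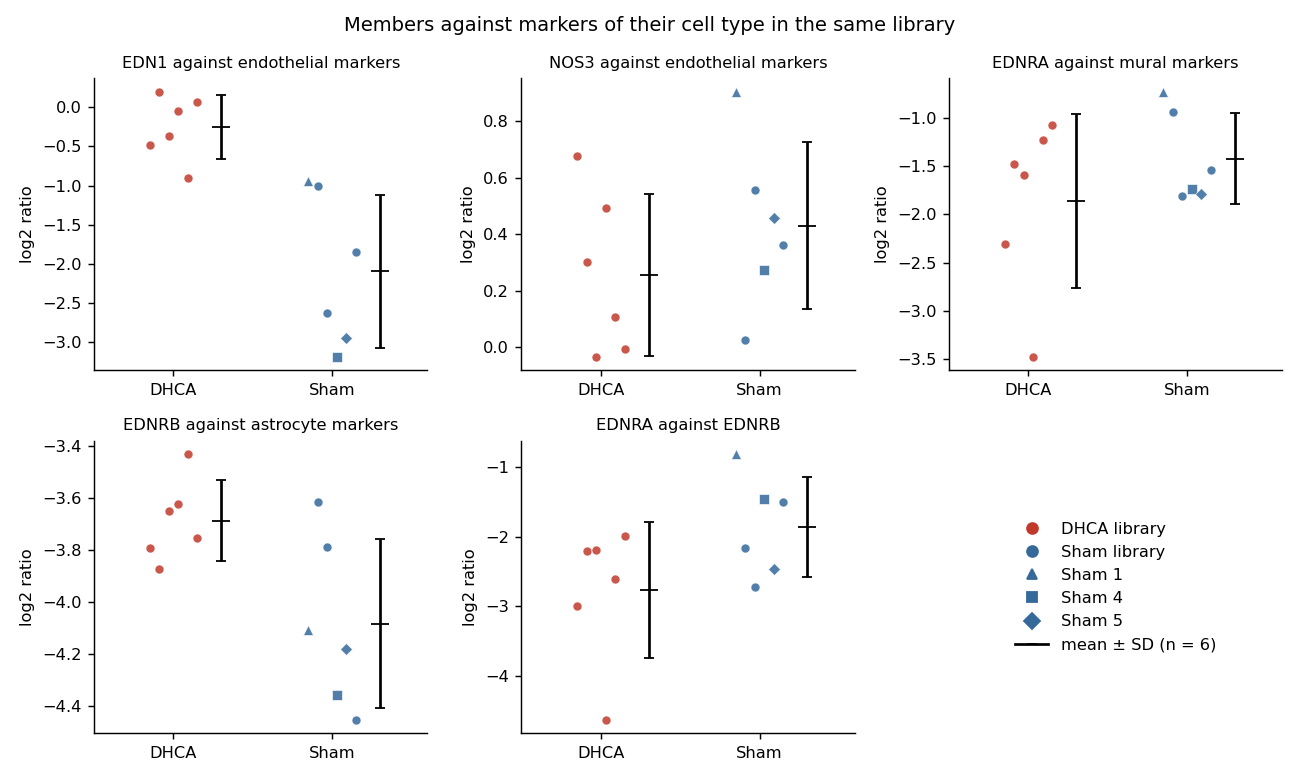
Log2 ratio of each gene to the markers of its cell type, or to the other receptor, in every library, with DHCA in red on the left, sham in blue on the right, and the mean and SD in black (n = 6 each). In the first panel the 6 DHCA values lie above all 6 sham values, and in the other 4 panels the groups overlap.

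The genes that supply and regulate nitric oxide synthases, and those that act after endothelin and nitric oxide, were counted over 5 lists. In these lists edgeR called 0 genes, where it called 0.186% of all genes. For the unadjusted counts given per list below, the shares over all genes were 3.43% higher and 4.47% lower. The list of substrate and cofactor supply had 13 genes tested, with a median log2 fold change of 0.07. SLC7A2 and GCH1, both higher in DHCA, were the 2 with an unadjusted edgeR p under 0.05.

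SLC7A2 encodes a cationic amino acid transporter that brings arginine into cells. It ranged from 90.9 to 153 CPM in DHCA with a median of 111, against 16.3 to 78.6 CPM in sham with a median of 31.1, and the groups did not overlap. The means were 115 ± 21.0 CPM in DHCA and 39.5 ± 22.7 CPM in sham (SD, n = 6 each; log2 fold change 1.53, SE 0.31, edgeR adjusted p = 0.0704). SLC7A2 was called by the DESeq2 Wald test (adjusted p = 0.000753), by limma-voom (adjusted p = 0.0308) and by edgeR without Sham 6 (log2 fold change 1.85, adjusted p = 0.0113). With Sham 1, Sham 4 and Sham 5 left out its edgeR log2 fold change was 1.12 (adjusted p = 0.387).

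GCH1, the rate-limiting enzyme of tetrahydrobiopterin synthesis, ranged from 2.01 to 4.15 CPM in DHCA with a median of 2.97, against 1.33 to 2.33 CPM in sham with a median of 1.66. Its log2 fold change was 0.71 (SE 0.26, edgeR adjusted p = 0.454), and its values rest on as few as 2 counts in Sham 5. The arginase gene ARG2 had a log2 fold change of 0.42 (SE 0.22), the arginine transporter gene SLC7A1 -0.28 (SE 0.21) and ASS1, which remakes arginine from citrulline, -0.24 (SE 0.22). DDAH1 and DDAH2, which break down the inhibitor asymmetric dimethylarginine, had 0.28 (SE 0.19) and -0.37 (SE 0.34). None of these 5 had an edgeR adjusted p under 0.71.

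**Figure D5:**
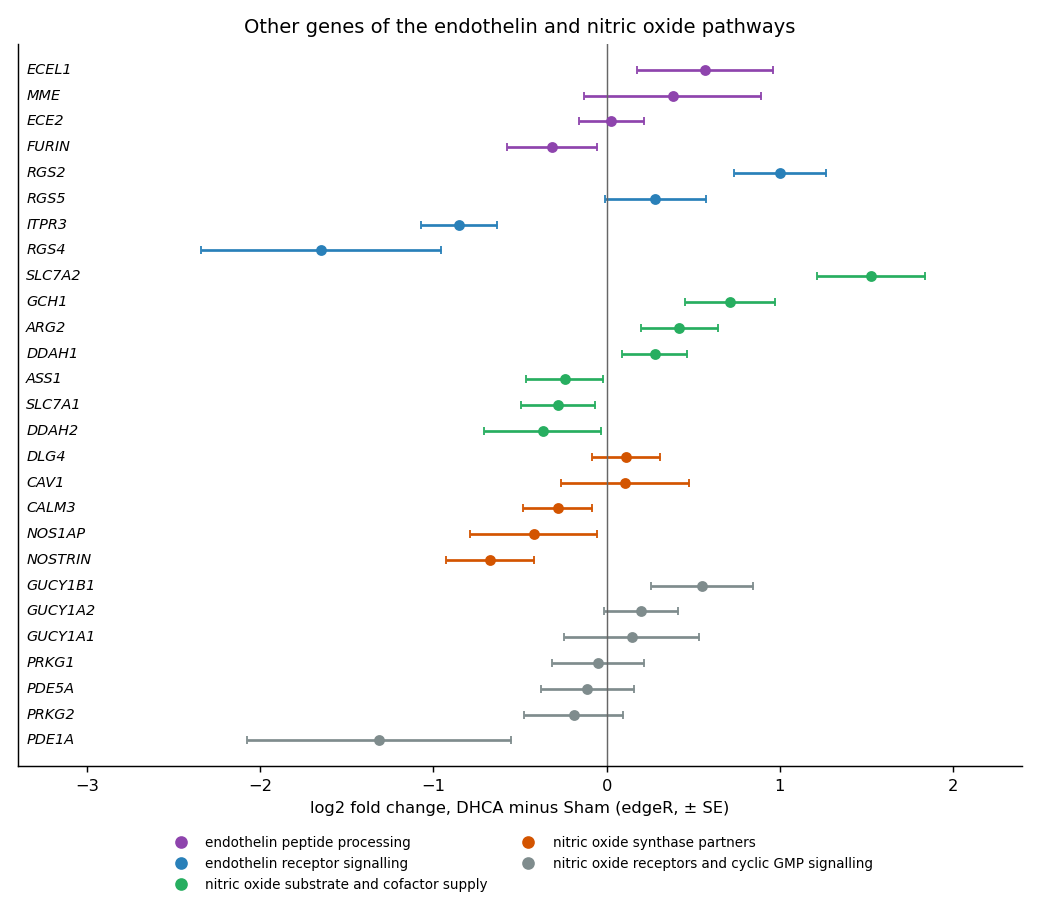
Log2 fold change (DHCA minus sham, edgeR, with SE) of 27 other genes of the endothelin and nitric oxide pathways, coloured by list. SLC7A2 (1.53) and RGS2 (1.00) lie furthest to the right, and RGS4 (-1.65) and PDE1A (-1.31), both with wide errors, furthest to the left.

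Among the 29 tested genes of endothelin receptor signalling, 1 was higher and 2 were lower at an unadjusted p under 0.05, with a median log2 fold change of -0.07. RGS2, a regulator that switches off the Gq proteins used by both endothelin receptors, ranged from 55.4 to 86.4 CPM in DHCA with a median of 69.6, against 16.1 to 51.5 CPM in sham with a median of 37.3. The groups did not overlap, and the log2 fold change was 1.00 (SE 0.27, edgeR adjusted p = 0.206). RGS2 was called by the DESeq2 Wald test (adjusted p = 0.0307) but not by limma-voom (log2 fold change 0.79, adjusted p = 0.0788). With Sham 1, Sham 4 and Sham 5 left out its edgeR log2 fold change was 0.57 (adjusted p = 0.453).

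ITPR3, a receptor channel that releases stored calcium, ranged from 9.00 to 16.4 CPM in DHCA with a median of 12.1, against 14.4 to 27.9 CPM in sham with a median of 23.6. Its log2 fold change was -0.85 (SE 0.22, edgeR adjusted p = 0.188). ITPR3 was called by the DESeq2 Wald test (adjusted p = 0.0301) but not by limma-voom (log2 fold change -0.65, adjusted p = 0.134). With 1 library left out its edgeR log2 fold change ran from -0.96 to -0.78, with adjusted p from 0.0762 to 0.44. RGS4, a further regulator of Gq and Gi proteins, ranged from 8.04 to 14.8 CPM in DHCA, against 3.49 to 15.2 CPM in 5 sham libraries and 135 CPM in Sham 4. Its log2 fold change was -1.65 (SE 0.69, edgeR adjusted p = 0.563). Without Sham 4 its log2 fold change was -0.11. RGS5, a pericyte gene of the same family, had 0.28 (SE 0.29, edgeR adjusted p = 0.827).

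The peptide processing list had 5 tested genes, with 0 at an unadjusted p under 0.05 and a median log2 fold change of 0.03. ECE2, a second converting enzyme, had 0.03 (SE 0.19), the related ECEL1 0.57 (SE 0.39), neprilysin (MME), which degrades endothelin, 0.38 (SE 0.51), and the protease FURIN -0.32 (SE 0.26). FURIN had -0.062 without Sham 1, its highest library at 163 CPM, and turned to 0.047 with limma-voom. The lowest DHCA values were 37.0 CPM for MME and 13.0 CPM for ECEL1, against 1.42 CPM for MME and 1.85 CPM for ECEL1 in Sham 4. Without Sham 4 the log2 fold change of MME was 0.11 and that of ECEL1 0.31, and MME had -0.17 with Sham 1 and Sham 5 left out as well. EDN2, a further endothelin gene, was not tested, with 4 counts over all 12 libraries.

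The list of synthase partners had 12 genes tested, with 1 lower and 0 higher at an unadjusted p under 0.05 and a median log2 fold change of 0.05. The lower one was NOSTRIN, which carries NOS3 away from the plasma membrane, at 3.90 ± 0.56 CPM in DHCA and 6.37 ± 2.13 CPM in sham (SD, n = 6 each; log2 fold change -0.67, SE 0.26, edgeR adjusted p = 0.488). CAV1, the caveolar inhibitor of NOS3, had 0.11 (SE 0.37), DLG4, the scaffold that ties NOS1 to glutamate receptors, 0.11 (SE 0.20), and the NOS1 adaptor NOS1AP -0.42 (SE 0.37). NOS1AP ranged from 7.84 to 16.7 CPM in DHCA, against 7.41 to 15.98 CPM in 5 sham libraries and 43.5 CPM in Sham 4, without which its log2 fold change turned to 0.11. A calmodulin gene, 1 of 3 gene IDs named CALM3, had -0.28 (SE 0.20).

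The receptors of nitric oxide and the cyclic GMP pathway had 17 genes tested, with 0 at an unadjusted p under 0.05 and a median log2 fold change of 0.01. The guanylate cyclase subunit genes GUCY1A1, GUCY1A2 and GUCY1B1 had 0.14 (SE 0.39), 0.20 (SE 0.21) and 0.55 (SE 0.29). The cyclic GMP kinase genes PRKG1 and PRKG2 had -0.05 (SE 0.26) and -0.19 (SE 0.29), the phosphodiesterase gene PDE5A -0.11 (SE 0.27) and PDE1A -1.31 (SE 0.76). GUCY1A1 ranged from 111 to 177 CPM in DHCA, against 16.9 CPM in Sham 4. PDE1A ranged from 2.15 to 15.6 CPM in DHCA, against 78.0 CPM in Sham 4. Without Sham 4 the log2 fold change of GUCY1A1 was -0.10 and that of PDE1A 0.32.

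The genes whose log2 CPM ranked most like that of EDN1 over the 12 libraries, out of 12735 compared, were MAP3K8, TLR2 and GCH1, with Spearman's rho of 0.951, 0.93 and 0.916. MAP3K8 encodes a kinase activated downstream of Toll-like receptors, and TLR2 a receptor of bacterial lipoproteins. TLR2 ranged from 9.51 to 16.1 CPM in DHCA and from 2.00 to 7.03 CPM in sham, and was 1 of the 26 genes called (log2 fold change 1.64, edgeR adjusted p = 0.0323). The most alike gene was WRAP53 to NOS3 (0.951), WIPF3 to NOS2 (0.916), LSM4 to EDNRB (0.951), BORCS7 to EDNRA (0.923) and TAF11 to ECE1 (0.867). Next came SLC35C1 and UPF3A for NOS3, MLXIP and MAN2B2 for NOS2, CDK13 and SLC44A3 for EDNRB, MTERF3 and BRMS1L for EDNRA, and POLR3D and PI4K2B for ECE1, with rho from 0.825 to 0.944. These are descriptions chosen as the highest of many values over shared libraries, and carry no test.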

How the data were processed

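RNA from 12 striatal samples was placed in groups by sample title. The deposited table holds raw counts per gene. Per the file headers, featureCounts 1.5.1 summed exon reads without a strand option, and the submitters' processing notes name Sscrofa11.1. No aligner is named in the labels or headers. Of 18 library columns 12 matched a sample, and 6 were not used. A second table, of the authors' own deposited comparison, holds a normalized mean (signal), a log2 fold change, its standard error and a statistic (scores), and p-values with adjusted p-values. The submitters' processing notes name DESeq2. Its direction is not stated, and it was read as DHCA minus sham because its fold changes correlated with those computed here (r = 0.967 across 14004 genes, which are not independent). In all 21223 rows the deposited statistic has the opposite sign to the fold change.

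In R 4.3.3, edgeR 4.0.16 was used with filterByExpr, TMM scaling and the quasi-likelihood F test with group as the only term, adjusted by Benjamini-Hochberg over 14004 genes, with a threshold of 0.05. The SE comes from the F statistic. CPM uses TMM-scaled totals, and RPKM divides it by exon length. Ratios use log2 CPM with a prior count of 2. Alternatives used DESeq2 1.42.0 and limma 3.58.1, other scalings and filters, a block by title number and left-out libraries. The steps were tested on simulated data, in which 200 genes were changed by known folds. There edgeR called 45% of the 2-fold changes, DESeq2 57% and limma-voom 42%. A gene that was not called may therefore still differ. Of the unchanged genes in the simulation, edgeR called 2, DESeq2 20 and limma-voom 3. A count of 3 stands for 0.22 to 2.00 CPM, depending on the library. Named genes are the 7 genes, 23 pathway genes set by name of which those tested are given, the 2 with the smallest p per pathway list, and the 3 most alike per gene, which for NOS1 are not reported here. The genes and lists were chosen with earlier results of these data known.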

Additional observations from a re-analysis of the deposited data

Results flagged for a closer look

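In 7 of 78 groups of 6 libraries checked (39 quantities in 2 groups each), a single library stood apart from the rest by more than a gap test allows, where chance alone marks about 1 in 20 groups. All 7 were sham groups. The gap to the nearest library, as a share of the group's range, is given for each, and the causes were not tested.

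Sham 1 held the highest EDNRA value (10.9 CPM against 3.99 to 5.99 CPM in the other sham libraries, gap 0.709) and the highest NOS3 value (53.5 CPM against 20.4 to 31.5 CPM, gap 0.663). It held the lowest ARG2 value (4.27 CPM against 8.65 to 11.2 CPM, gap 0.63). Sham 2 held the lowest NOS1 value (44.0 CPM against 81.2 to 97.2 CPM, gap 0.699).

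Sham 4 held the highest value of RGS4 (135 CPM against 3.49 to 15.2 CPM, gap 0.911), of NOS1AP (43.5 CPM against 7.41 to 15.98 CPM, gap 0.762) and of PDE1A (78.0 CPM against 3.33 to 8.82 CPM, gap 0.926). This is the library with 1015 CPM of cortical markers.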

How the results depend on the processing

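All 7 genes kept the direction of their fold change in all 21 alternatives, and the call changed only for EDN1, under limma-voom. The number of the 7 genes called was 1 under limma-voom and 0 elsewhere. The number of all genes called was 179 with DESeq2, 207 with limma-voom, 12 without Sham 1 and Sham 5, 1 without Sham 1, Sham 4 and Sham 5, and 9 to 51 with 1 library left out, against 26. The correlation between libraries of the same title number was -0.388 to 0.338, and 1 of 6 DHCA libraries correlated best with its own number. The labels do not say whether samples of the same number belong together, and these correlations cannot settle it. With the replicate block 8 genes were called, 0 of them among the 7. For EDN1 against endothelial markers the block leaves the difference of 1.83 as it is by construction. Its exact p of 0.0313 is the smallest that 6 pairs can give. The adjusted p = 0.156 depends on the p-values of the other ratios as well, and says little about stability. Without Sham 1, Sham 4 and Sham 5 the difference in the EDN1 ratio was 1.57. EDNRB against astrocyte markers ranged from 0.32 to 0.49 with 1 library left out, and was called only without Sham 2. Its lowest difference over all alternatives was 0.26.

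Some pathway genes that were not called turned sign. With 1 library left out the ranges were -0.058 to 0.13 for ECE2, -0.19 to 0.13 for PRKG1, -0.21 to 0.39 for CAV1, -0.60 to 0.11 for NOS1AP, -0.10 to 0.28 for GUCY1A1, -0.33 to 0.031 for PRKG2, -0.26 to 0.038 for PDE5A and -1.69 to 0.32 for PDE1A. With upper-quartile factors ECE2 was -0.015. With limma-voom FURIN was 0.047, CAV1 -0.16, NOS1AP 0.033 and PRKG2 0.23. Without Sham 1 and Sham 5 CAV1 was -0.043. Without Sham 1, Sham 4 and Sham 5, MME was -0.17, FURIN 0.14, SLC7A1 0.089, CAV1 -0.076, NOS1AP 0.26, GUCY1A1 -0.29, GUCY1A2 -0.17, PRKG2 0.29 and PDE1A 0.088. The cause was not tested. Low depth limits EDN1, EDNRA and GCH1 in Sham 5, with 4, 6 and 2 counts.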
